A study of Mus musculus with 2 samples.

Results

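Complement, clotting and fibrinolysis are chains of proteases in plasma and on cell surfaces, each held in check by its own inhibitors. They were read here by 37 genes fixed by symbol, 18 of complement and 19 of clotting, clot breakdown and their inhibitors and receptors, out of 18193 genes that the array reads singly. Of the 37 genes, 32 had at least 1 probe set annotated to them alone, 57 probe sets in all. The genes C3, C4b, Cfd, Serpine2 and F2rl1 had none in the annotation used and were not analysed here. Another 3 probe sets annotated to a member together with a second gene were set aside. Of the 32 genes, 26 had an intensity above a floor for dim signals on at least 1 array and 6 lay below it on both. Members were picked by symbol and not by a threshold on their values, though with earlier results of these data known.

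The RNA came from whole lungs of C57BL/6 mice aged 6 to 8 weeks, each given 500000 Lewis lung carcinoma (LLC) cells in 200 µL through a tail vein, with the lungs taken on day 19. LLC is a transplantable mouse lung tumour line. In the control group the injected cells carried the vector, and in the other group they overexpressed TDAG8, the acid-sensing receptor encoded by Gpr65. Both groups therefore bore LLC tumour cells, and a tumour-free lung was not analysed here. Each group was 1 pool of lung RNA from 10 mice on 1 Affymetrix array, so no value has an error over mice and no test was possible. Whether the transfected cells were 1 clone, and which promoter drove TDAG8, were not given in the sources used here. Tumour and host are both mouse, so transcripts of the 2 sources cannot be told apart, nor can more cells of a type and more RNA per cell.

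In background terms, C1q binds antibody or dying cells and starts the classical pathway, whose proteases C1r and C1s cut C4 and C2 to form an enzyme that splits C3. Factor B, factor D and properdin amplify this step in the alternative pathway, and C5 opens the terminal pathway. Clotting starts when tissue factor meets factor VII and runs through factor X to thrombin and fibrin, while plasminogen activators later dissolve the clot. Liver makes most plasma complement and clotting proteins, macrophages make C1q and properdin, and lung endothelium carries thrombomodulin and other clot inhibitors.

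The arrays were on 1 scale, with a trimmed mean of 100 intensity units each, and the floor, the 50th percentile of each array, was 26.3 in the control and 24.3 in the TDAG8 array. Each gene was described by its log2 ratio, TDAG8 over control, centred on the median gene, and a gene was counted as higher or lower at 2-fold. Among 11949 measured genes 5.41% reached 2-fold on the higher side and 1.19% on the lower side, and 49.9% had a ratio above 0. Ratios over genes above the floor on both arrays had an SD of 0.55. Over 4775 genes with a second probe set, the ratios of both probe sets differed by a median of 0.20 and, at the 90th percentile, by 0.58. That difference is the only measure of technical spread the arrays offer. It compares probe sets on the same arrays, so it holds no spread between arrays or between pools. Gpr65 went from 32.3 to 73.9, a log2 ratio of 1.25, but whether its probe set reads the transfected sequence is not known here. The labelled tissue was checked by 9 alveolar markers, all above the floor on both arrays, among them Sftpc at 7476 and 6605.

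Among the measured members, complement had the higher median ratio. Of its 18 genes 13 were measured, all on both arrays, 7 were at least 2-fold higher and none was 2-fold lower, where 4.96% of all genes above the floor on both arrays were 2-fold higher. The clotting and fibrinolysis branch had 12 of 19 genes above the floor on both arrays, 2 of them at least 2-fold higher and none 2-fold lower. A further gene, Serpinb2, passed the filter only through the TDAG8 pool and so had to be high. Over genes on both arrays the median log2 ratio was 1.07 in complement and 0.10 in clotting and fibrinolysis, a difference of 0.97. With Serpinb2 at its bound the branch had 3 genes past 2-fold, a median of 0.27 and a difference of 0.81. That last difference was 0.36 when the floor was set at the 30th percentile, which added dim members, and 0.52 when all probe sets of a gene were averaged. Neither branch moved as a block: complement ran from -0.70 to 1.66 and the other branch from -0.62 to a bound of 1.95. The complement genes past 2-fold were the C1q chains, Cfb, Cfp, C3ar1 and C5ar1, and those below 0 were Hc and the 3 measured inhibitors. In the lists of other genes of these pathways complement had a median of -0.15, clotting -0.28 and fibrinolysis 0.32. Complement thus lay between the parts of the other branch there.

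**Figure D1:**
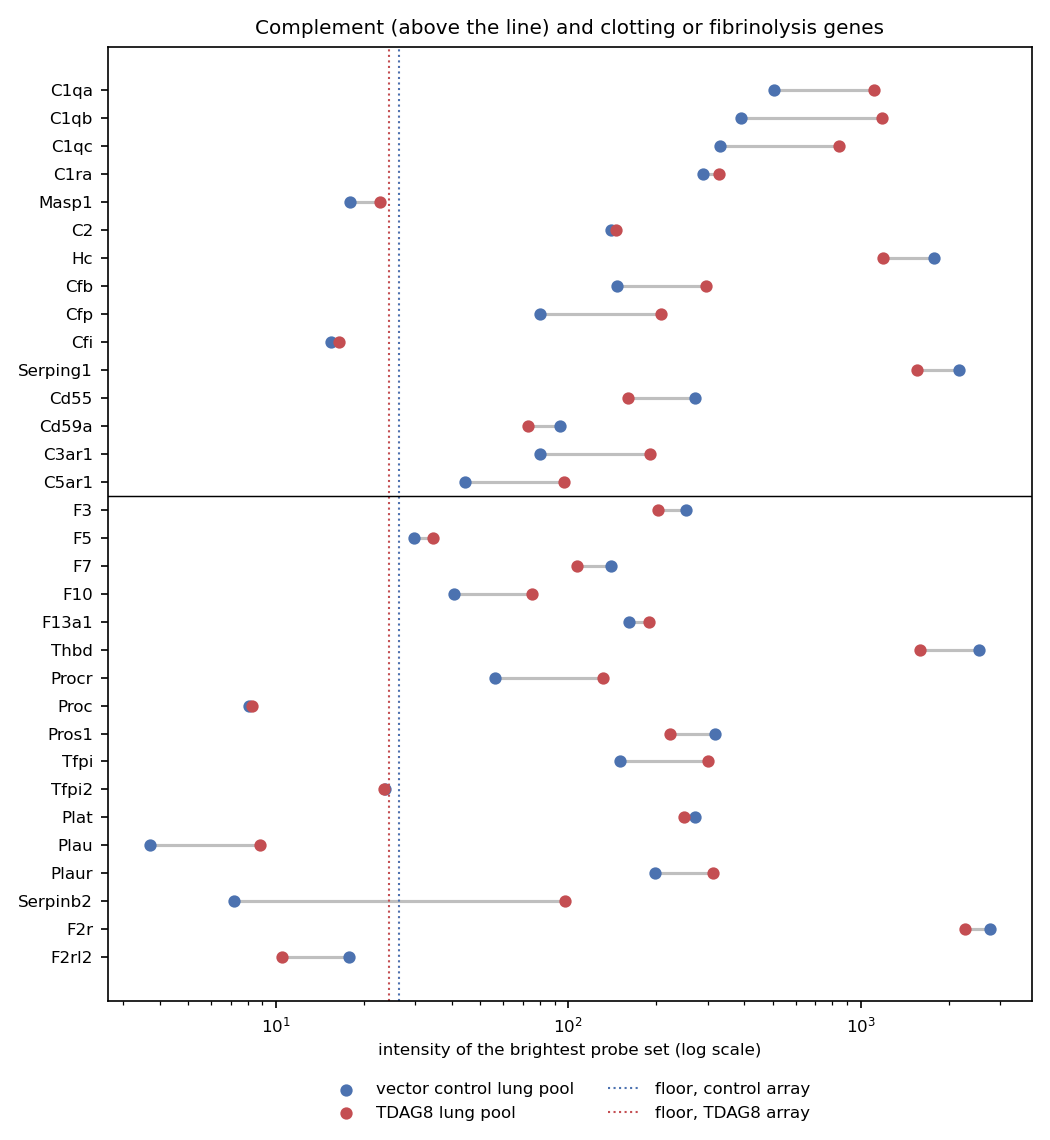
Intensity (log axis) of the probe set with the highest mean level for each of the 32 members with a probe set, in the vector control pool (blue) and the TDAG8 pool (red), 1 array each, with the floor of each array dotted. The C1q genes, Cfb, Cfp, C3ar1 and C5ar1 lie to the right in the TDAG8 pool, and Hc, Serping1, Cd55 and Thbd lie to the left.

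All 3 C1q chains were at least 2-fold higher. C1q is a bundle of A, B and C chains encoded by C1qa, C1qb and C1qc. C1qa had an intensity of 505 in the control and 1113 in the TDAG8 pool. C1qb went from 391 to 1185 and C1qc from 331 to 845. The ratios put C1qa 2.30-fold, C1qb 3.15-fold and C1qc 2.66-fold higher. The other probe sets of C1qb gave log2 ratios of 1.48 and 1.12 beside 1.66, so its reads spread by 0.54 and stayed above 2-fold. Under all 8 alternative settings each chain stayed at least 2-fold higher, from 1.14 in C1qa to 1.68 in C1qb.

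The C1q genes lie side by side on chromosome 4, with C1qc between C1qa and C1qb and no other protein-coding gene among them in the RefSeq table of GRCm38.p6. Since the neighbours were high together, their start regions are shown, each a window of 300 bases that runs from upstream to just past the annotated start. That table held windows for C1qb and C1qc. C3ar1 and Serpinb2 follow for comparison, as a receptor that was high by every probe set and as the member with the highest bound. Capitals mark 3 motifs searched on both strands: GAGGAA, a purine-rich site of PU.1 and related ETS factors, TGANTCA, the AP-1 site, and TATAAA, the TATA box. The sequences are from RefSeq and read 5′ to 3′ on the gene's strand. C1qb lies on the minus strand at chr4:136886151-136886450, C1qc on the minus strand at chr4:136892865-136893164, C3ar1 on the minus strand at chr6:122856108-122856407 and Serpinb2, in the first of 2 windows listed, on the plus strand at chr1:107511173-107511472.
C1qb: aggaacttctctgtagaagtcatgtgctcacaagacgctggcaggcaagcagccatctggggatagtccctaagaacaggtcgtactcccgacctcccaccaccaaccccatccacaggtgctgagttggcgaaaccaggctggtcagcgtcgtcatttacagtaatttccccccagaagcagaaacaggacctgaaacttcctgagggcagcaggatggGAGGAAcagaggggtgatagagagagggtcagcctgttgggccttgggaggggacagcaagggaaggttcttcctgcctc
C1qc: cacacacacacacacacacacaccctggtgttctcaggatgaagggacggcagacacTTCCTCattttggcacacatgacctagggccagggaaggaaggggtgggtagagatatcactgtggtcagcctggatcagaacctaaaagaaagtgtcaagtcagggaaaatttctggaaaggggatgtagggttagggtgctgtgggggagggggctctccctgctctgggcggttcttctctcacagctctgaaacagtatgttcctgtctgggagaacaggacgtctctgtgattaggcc
C3ar1: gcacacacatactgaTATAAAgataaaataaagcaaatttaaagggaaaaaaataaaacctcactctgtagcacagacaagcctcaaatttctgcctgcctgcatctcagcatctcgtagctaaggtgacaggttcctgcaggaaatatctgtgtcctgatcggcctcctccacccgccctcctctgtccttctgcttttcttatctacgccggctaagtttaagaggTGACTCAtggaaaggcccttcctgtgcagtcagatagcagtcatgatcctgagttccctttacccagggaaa
Serpinb2: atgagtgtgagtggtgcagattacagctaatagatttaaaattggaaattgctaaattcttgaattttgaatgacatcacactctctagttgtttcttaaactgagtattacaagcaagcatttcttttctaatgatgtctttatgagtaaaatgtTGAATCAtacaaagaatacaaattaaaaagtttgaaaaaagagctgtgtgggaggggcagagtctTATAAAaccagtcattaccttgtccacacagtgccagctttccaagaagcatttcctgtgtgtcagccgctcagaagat

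Both C1q windows held GAGGAA once, C1qb on the strand shown and C1qc on the opposite one, where it reads TTCCTC. That motif occurred in 28.1% of 32544 distinct windows of the same length and in 13 of 30 windows of members. These belonged to 11 of the 25 members with a window. The C3ar1 and Serpinb2 windows each held 1 match to the AP-1 site and 1 to TATAAA, motifs present in 7.79% and 13.6% of all windows. The TATAAA of C3ar1 lay near the upstream end of its window, far from the annotated start, and that of Serpinb2 lay closer to the start. Of the 30 member windows 9 held the AP-1 motif, in 8 of 25 members, and 7 held TATAAA, in 6 of 25 members. These matches describe letters only, and no binding was measured.

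The proteases that follow C1q were close to the median gene. C1ra, the C1r protease, had 289 and 327, a log2 ratio of 0.23. C2, the protease that joins C4, had ratios of 0.12, -0.15 and -0.41 by its 3 probe sets, from 140 to 146 by the first. The sign for C2 thus depended on the probe set, and the average of all 3 was -0.13. Masp1, a protease of the lectin pathway, lay below the floor with all 5 probe sets, the highest value being 22.7.

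Of the alternative pathway Cfb and, by 1 of its probe sets, Cfp were at least 2-fold higher, and the terminal component Hc was below 0. Cfb, which encodes the protease factor B, went from 146 to 296, 2.10-fold higher. Its ratio was 0.96 with the offset in place of the floor and at least 1.01 in the other alternatives. Cfp, which encodes properdin, the stabiliser of the C3-splitting enzyme, went from 79.9 to 207, 2.70-fold higher. Its other probe set, at 40.6 and 35.0, gave -0.16, and the mean over both was 0.66, so the call rests on 1 probe set. Hc, the gene of C5, went the opposite way, from 1786 to 1198, 1.43-fold lower. The log2 ratio of Hc was -0.52, in size under 0.58, the 90th percentile of the difference between probe sets of a gene. It stayed between -0.58 and -0.50 under the alternatives.

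The 3 measured inhibitors of complement were on the low side, though none reached 2-fold. Over all measured genes 49.9% had a ratio above 0, so a ratio below 0 is common. Serping1, the C1 inhibitor that also restrains contact-phase proteases, went from 2165 to 1562, a log2 ratio of -0.41. Cd55, which breaks up the C3-splitting enzymes on host cells, went from 271 to 160, 1.63-fold lower. The other probe sets of Cd55 gave -0.35 and -0.89, so all 3 were below 0. Cd59a, which stops the membrane attack complex, had 93.4 and 72.9, a ratio of -0.30, and -0.78 by its second probe set. All 6 measured probe sets of these 3 genes were below 0, but they were read on the same arrays and are no replicates. Cfi, the protease that cuts C3b and C4b, lay below the floor at 15.4 and 16.5.

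The receptors for the split products C3a and C5a were both high. C3ar1, the C3a receptor of myeloid cells, went from 79.8 to 191, 2.49-fold higher. Its other probe sets went from 63.6 to 189 and from 56.8 to 194, 3.09-fold and 3.55-fold. C5ar1, the C5a receptor that draws neutrophils and macrophages, went from 44.2 to 97.0 and by a second probe set from 31.2 to 80.8. Its ratios were 1.19 and 1.43, so all 5 probe sets of the receptor pair were above 2-fold. The C5ar1 values lay near the floor, and with the floor at the 65th percentile its ratio had a lower bound of 0.68. C3ar1 was at 1.09 or more in each of the 8 alternatives.

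**Figure D2:**
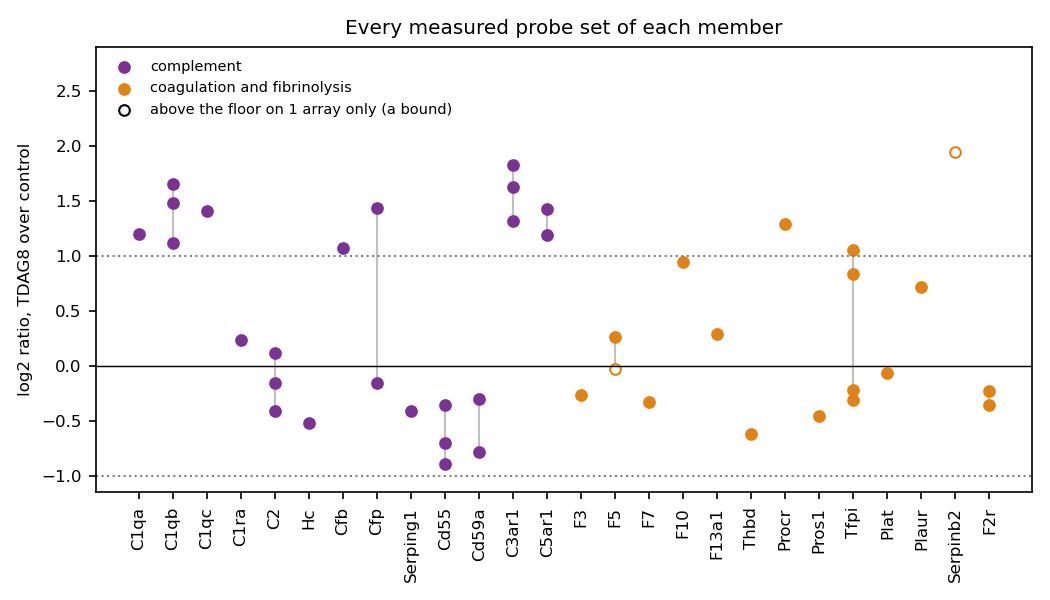
Log2 ratio of TDAG8 over control for each of the 42 measured probe sets of the 26 measured members, 1 column per gene, with dotted lines at 2-fold and open circles for probe sets above the floor on 1 array only. C1qb, C3ar1 and C5ar1 keep all points above the upper line, Cd55 and Cd59a keep theirs below 0, and Cfp and Tfpi are split.

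Markers of macrophages and monocytes were mixed beside these genes, with a median above 0. Of 13 listed markers 11 had a probe set and 10 were above the floor on both arrays. Of these 8 had positive ratios, 4 passed 2-fold and the median was 0.61. Over all genes above the floor on both arrays 4.96% were at least 2-fold higher. With Msr1, which was above the floor in the TDAG8 pool only and so had to be high, 5 of 11 passed 2-fold and the median was 0.85. Their summed intensity was 9250 in the control and 9622 in the TDAG8 pool, most of it Lyz2, at 6650 and 6002. Lyz2, the macrophage lysozyme, was at -0.09. By its brightest probe set Msr1, a scavenger receptor, went from 25.4, below the floor, to 122, a bound of 4.85-fold higher. The log2 bounds of its 3 measured probe sets ran from 1.15 to 2.28. Csf1r was at 0.20 and Mrc1 at -0.16, in size no larger than the median difference of 0.20 between probe sets of a gene. The part of the macrophage share of the tissue in the C1q, properdin and receptor values was not tested. Neutrophil markers gave a median of 0.19 over 6 measured of 10, from -0.56 to 0.63 in Csf3r, with S100a8 at 0.10 and summed intensities of 1545 and 1543.

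None of the 5 clotting factors reached 2-fold, and F10 came closest. F3, tissue factor, went from 253 to 203, a log2 ratio of -0.26. F7, whose protein pairs with tissue factor, went from 140 to 107, a ratio of -0.33. F13a1, the fibrin-linking factor XIII A chain of macrophages and platelets, had 161 and 189, a ratio of 0.29. The size of each of these 3 ratios was under 0.58, the 90th percentile of the difference between probe sets of a gene. F5, the cofactor of factor X, was near the floor at 29.8 and 34.4. F10, factor X, went from 40.6 to 74.9, 1.92-fold higher, by 1 of its 3 probe sets, the others lying below the floor on both arrays. Its ratio was 0.29 when the 3 were averaged and 1.02 at the highest.

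Clot inhibitors split, with the receptor of protein C high and thrombomodulin low. Thrombomodulin, encoded by Thbd, turns thrombin toward protein C on endothelium, and it went from 2548 to 1597, 1.53-fold lower. Procr encodes the receptor that presents protein C to that complex. Procr went from 56.3 to 132, 2.44-fold higher, read by 1 probe set. Its ratio was 0.99 with the offset and at least 1.13 in the 6 other alternatives it could be computed in. Pros1, protein S, the cofactor of activated protein C, went from 319 to 223, a ratio of -0.46. Proc, protein C itself, lay below the floor at 8.1 and 8.3.

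Tfpi, the inhibitor of tissue factor and factor X, gave opposite answers by probe set. A pair of probe sets went from 151 to 301 and from 143 to 246, log2 ratios of 1.06 and 0.84. The other pair went from 182 to 151 and from 116 to 90.4, ratios of -0.22 and -0.31. Per the platform annotation the high pair was designed from a single source sequence and the low probe sets each from another. The gap of 1.36 between the extremes was above the 90th percentile of 0.58 for probe sets of a gene. With all 4 averaged the ratio was 0.36, so the 2-fold call for Tfpi rests on the choice of probe set, and it was 0.95 with the offset. Tfpi2, a related inhibitor, lay below the floor at 23.6 and 23.4.

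Endothelial markers were low beside Thbd. All 10 listed markers were measured and all had ratios below 0, with a median of -0.69, from -0.91 in Robo4 to -0.40. Their summed intensity went from 8705 to 5226. Plvap, the diaphragm protein of fenestrated vessels, went from 1605 to 831, a ratio of -0.89. The ratio of Thbd, -0.62, lay within the range of the list, while that of Procr, 1.29, lay outside it. The part of the endothelial share of the tissue in these values was not tested. Alveolar epithelial markers, 9 of 9 measured and below 0, had a median of -0.45, from -0.63 in Aqp5 to -0.12 in Sftpc, and summed intensities of 41194 and 30043.

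**Figure D3:**
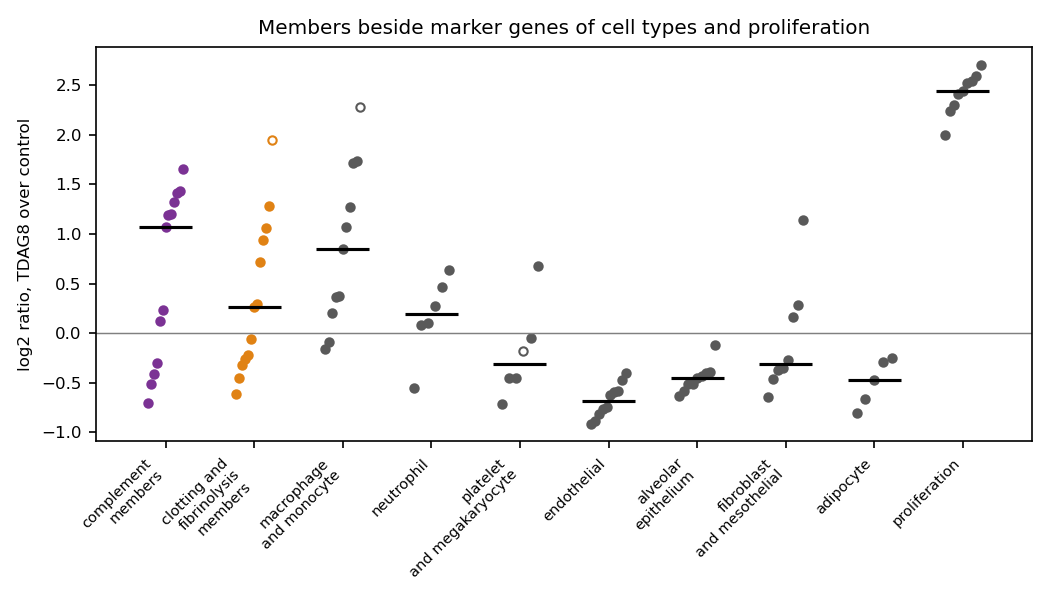
Log2 ratio of TDAG8 over control for measured members of both branches and for marker genes of cell types and proliferation, 1 point per gene, with the median of each list as a bar and open circles for genes above the floor on 1 array only. Complement has 7 genes above 1, C1ra and C2 just above 0 and 4 genes below 0, while all endothelial and alveolar markers lie below 0.

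Among fibrinolysis genes the inhibitor Serpinb2 had the highest bound. Serpinb2 encodes plasminogen activator inhibitor type 2, a product of activated macrophages and some epithelia. It was listed at 7.2 in the control, below the floor, and at 97.3 in the TDAG8 pool, and was at least 3.85-fold higher. The bound is set by the floor, being 3.56 on the log2 scale with the floor at the 30th percentile, 0.69 with the 65th and 1.95 in the main setting. As it passed the filter only through the TDAG8 pool, its ratio had to be above 0. The 12 clotting and fibrinolysis genes above the floor on both arrays had 6 ratios above 0 and 6 below.

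Plaur, the receptor that holds urokinase on the cell surface, went from 198 to 313, a log2 ratio of 0.72. Plau, urokinase itself, lay below the floor with both probe sets, at 8.8 or less. Plat, the tissue plasminogen activator of endothelium, had 270.5 and 248, a ratio of -0.06. The receptor of the urokinase pair was therefore measured without its ligand, and the endothelial activator was close to the median gene.

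Thrombin receptors were read by F2r alone. F2r, protease-activated receptor 1, went from 2771 to 2277 and by a second probe set from 1470 to 1100, ratios of -0.22 and -0.36. F2rl2, a relative that assists thrombin signalling, lay below the floor at 17.8 or less.

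**Figure D4:**
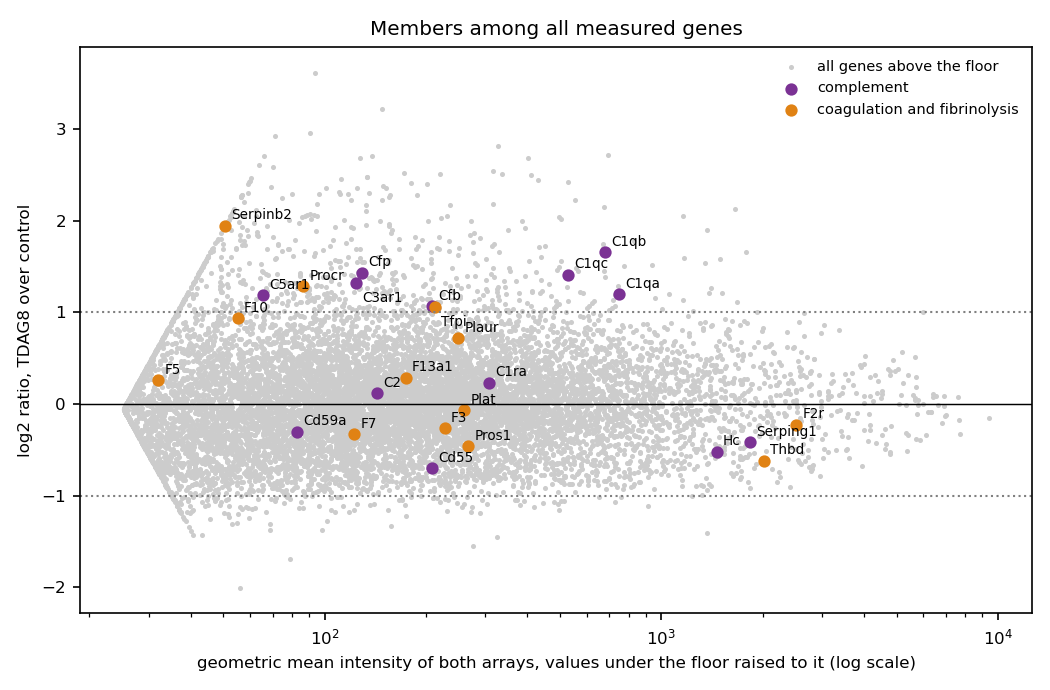
Log2 ratio of TDAG8 over control against the geometric mean intensity of both arrays (log axis) for all 11949 measured genes (grey) and the 26 measured members, with dotted lines at 2-fold; the wedge at the left arises where values are raised to the floor. C1qa, C1qb and C1qc lie above most genes of their level, and Hc, Serping1, Thbd and F2r lie below 0 at the bright end.

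Dim genes scatter more, so the members were also set against genes of their own level. Measured genes were divided into 4 equal classes of level. In the brightest class, 95% of log2 ratios lay between -0.83 and 1.18, and 3.98% were at least 2-fold higher. The 3 C1q chains, all in that class, lay above this range, C1qb at 1.66, C1qc at 1.41 and C1qa, at 1.20, only just. Thbd, Hc, Serping1 and F2r, in the same class, lay within it. In the dimmest class the range ran from -0.98 to 1.53 and 6.12% were at least 2-fold higher. C5ar1 lay at the lower edge of the next class, whose range of -0.89 to 1.45 held its ratio of 1.19. F10 lay in the dimmest class and within its range. Serpinb2, in the same class, passed the filter only through the TDAG8 pool and has a bound set by the floor. It was therefore not set against that range. The other members past 2-fold lay inside the range of their class, Cfp, C3ar1 and Procr under 1.45 and Cfb and Tfpi under 1.31.

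The rest of the pathway was read from lists of other genes. Of 34 other complement genes 28 had a probe set and 13 were measured, 4 above 0 and 9 below, with a median of -0.15 and 2 at least 2-fold higher. These were Itgam, the alpha chain of complement receptor 3, from 32.5 to 104, 3.32-fold, and Fcna, the lectin ficolin A of macrophages, from 31.3 to 75.8, 2.52-fold. Both control values lay just above the floor. Cd93, an endothelial and myeloid receptor once named as a C1q receptor, was the brightest of the list and had a ratio of -0.58. Itgam is also 1 of the macrophage markers, so it is counted in both lists.

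Genes of the terminal complement chain and of the plasma clotting chain were mostly below the floor. C8a, C8b, C8g and C9 were, while C6 had a ratio of -0.46. Of 24 other clotting genes 15 lay below it on both arrays, among them F2, F9, F11 and the fibrinogen chains Fga, Fgb and Fgg. Of the 8 measured, 2 passed the filter only through the control pool and so had to be low. The 6 above the floor on both arrays had 1 ratio above 0, none 2-fold different and a median of -0.28. Tgm2, tissue transglutaminase, was the brightest at -0.29, and Vwf, the platelet-binding protein of endothelium, named here after its values were seen, went from 1264 to 732, a ratio of -0.73. Other fibrinolysis genes had 7 of 13 measured, 1 of them, Serpinb8, through the control pool only. Of the 6 above the floor on both arrays 5 had ratios above 0, with a median of 0.32 and none past 2-fold. The brightest, Anxa2, which binds plasminogen activator on cells, was at 0.32.

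Markers of liver were at the level of the dim probe sets. All 7 hepatocyte markers with a probe set lay below the floor on both arrays, Tat having the highest value at 21.0, and their summed intensities were 68.6 and 56.5. Hc, Serping1, C2 and F7, whose proteins liver also makes, were therefore read in RNA with no measurable hepatocyte marker. Platelet markers had 6 of 9 measured, Gp9 through the control pool only. The 5 above the floor on both arrays had a median of -0.45, from -0.72 in Treml1 to 0.67 in Pf4, the brightest. With Gp9 the median was -0.32, and the summed intensities of the list were 772 and 786. All 9 proliferation markers with a probe set, of 10 listed, passed 2-fold, with a median of 2.44, the highest being Bub1 at 2.71 and the brightest Top2a at 2.44.

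**Figure D5:**
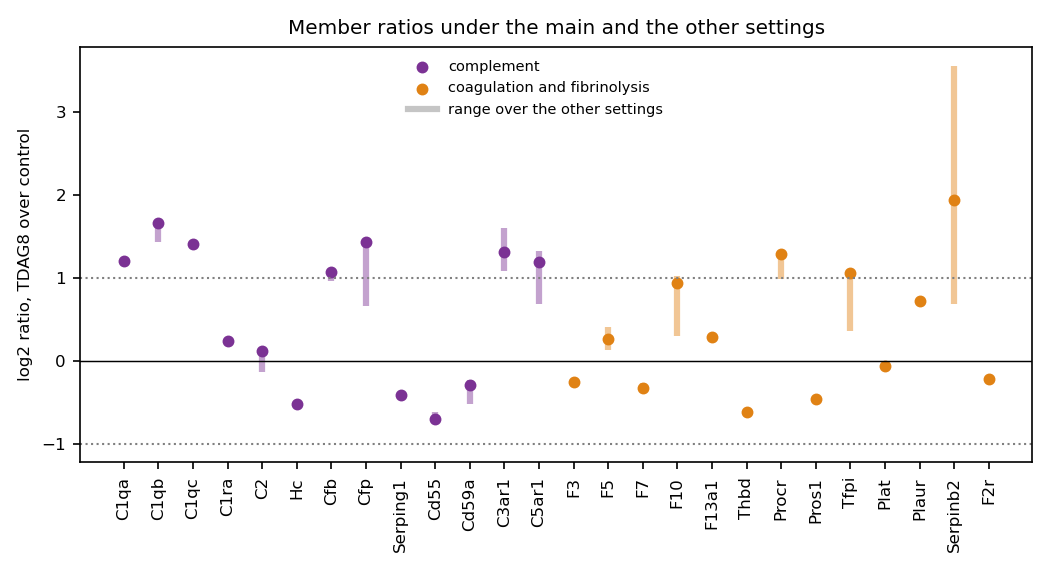
Log2 ratio of TDAG8 over control for each measured member under the main setting (point) and its range over up to 8 alternative settings (bar), with dotted lines at 2-fold. The bars of C1qa, C1qb, C1qc and C3ar1 stay above 2-fold, C2 crosses 0, and Serpinb2 has the widest bar.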

How the data were processed

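Whole-lung RNA of 2 groups, 1 pool and 1 array each, was compared. Per the labels' protocols, 2 µg of pooled RNA was primed from the poly(A) tail and made into biotin-labelled cRNA. The deposited values are intensities, 1 per probe set, scaled by the authors to a trimmed mean of 100. The summarising software was not given in the sources used here. No detection calls were used, and precision is limited by the number of arrays.

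Of 45101 probe sets 64 controls were left out. The platform annotation gave 1 gene for 34945, several for 932 and none for 9160, and 34741 matched the RefSeq table of GRCm38.p6 by gene identifier. Each gene was represented by its brightest probe set, by mean log2 intensity. Values under the 50th percentile of each array were raised to it, so ratios against them are bounds. Log2 ratios were centred by -0.06, the median over 11044 genes above the floor on both arrays, after which 905 further genes were above it on 1. No p-value is given.

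The members, gene lists, floor and alternatives were chosen with earlier results of these data known. The rule for named genes took all members, the brightest gene of each other list, other pathway genes past 2-fold and, of markers, also the one with the largest difference. The ratio procedure was tested on simulated data. The 8 alternatives left out the centring, replaced it by quantile normalization or by a loess curve of span 0.3, set the floor at the 30th or the 65th percentile, added the 50th percentile as an offset to all values, averaged the probe sets of a gene, or used only probe sets without a suffix that marks shared targets. Python 3.11.15, pandas 2.3.3, numpy 2.4.6 and statsmodels 0.14.6 were used.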

Additional observations from a re-analysis of the deposited data

How the results depend on the processing

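Of 204 recomputed member ratios 193 moved by less than 0.25, the SD of 1 probe set around its gene, 11 moved by more and none past 2-fold changed sign. Of 26 members 25 kept their sign in each alternative run, C2 being the exception, and of the 10 at least 2-fold higher 4 stayed so in all 8. The complement median of 1.07 became 0.42 with the floor at the 30th percentile, 0.68 with the 65th and 0.66 with the mean over probe sets. Its difference from the other branch, 0.81, became 0.36 with the lower floor and 0.52 with the mean. The complement count of 7 past 2-fold became 5 with an offset and 6 with the floor at the 65th percentile or with the mean. The clotting and fibrinolysis count of 3 became 1 with an offset and 4 with the loess curve. It became 2 without centring, with the floor at the 65th percentile, with the mean and without shared-target probe sets. Over all genes, the 142 lower ones became 345 with the floor at the 30th percentile, 68 with the 65th, 31 with an offset and 78 with the mean. Under the same settings the 646 higher ones became 876, 419, 435 and 469. In the other alternatives the lower ones numbered 106 to 202 and the higher ones 551 to 681. Without shared-target probe sets Procr, Plaur and F2r had no value. No paired analysis was possible because each group had 1 array, and no array could be left out. Values near the floor are set by it: the ratios of C5ar1, F10 and Serpinb2 became 0.68, 0.31 and 0.69 with the higher floor.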

Other observations

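Neighbouring genes of these pathways gave unlike ratios in several places. C2 and Cfb, adjacent on chromosome 17, were at 0.12 and 1.07. F7, F10 and Proz, the vitamin K-dependent cluster on chromosome 8, were at -0.33, 0.94 and, as a bound, -0.45. Serpinb2 and Serpinb8, with 1 protein-coding gene between them on chromosome 1, had bounds of 1.95 and -0.33. Serpinb2 passed the filter only through the TDAG8 pool, and Serpinb8 and Proz only through the control pool. The signs of these bounds were thus largely set by the filter and show no difference between neighbours. Thbd and Cd93, adjacent on chromosome 2, were alike at -0.62 and -0.58, as were the C1q chains. C1ra and C1s1, adjacent on chromosome 6 and encoding the paired proteases of C1, were at 0.23 and -0.04 while C1q itself was above 1. No cause was tested.

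Of 10 members with more than 1 measured probe set 6 had all of them on the same side of 0, and C2, Cfp, F5 and Tfpi did not. Fibroblast and mesothelial markers, all 8 measured, had a median of -0.31, from -0.64 to 1.14 in Lum. Adipocyte markers had 5 of 7 measured, all below 0, with a median of -0.47, and B and T cell markers 5 of 7, with a median of 0.27 and a range from -0.64 to 0.68.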
